A study of Danio rerio with 6 samples.

Results

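The comparison set mgat4b mutant melanoma against control melanoma in zebrafish skin, by the genotype and treatment labels of the libraries. It used 4 of the 6 RNA sequencing libraries of the study, 2 of mgat4b mutant melanoma and 2 of control melanoma. The remaining 2 libraries came from wild-type melanophores of untreated fish and served only to place levels. Both melanoma groups carried MAZERATI, a zebrafish tumor model in which plasmids are injected into early embryos of wild-type fish. The mitfa promoter, which is active in the melanocyte lineage, then drives an oncogenic form of BRAF together with Cas9, and guides direct Cas9 to tumor suppressor genes, among them both pten genes. Every library of both groups therefore shares the oncogene and the cut tumor suppressors. In the mgat4b mutant group guides against mgat4b were added, and in the control group there was no guide against mgat4b, although the study names this control in more than one way. Cells of both groups were dissociated from the skin of 1-month-old fish and enriched on a density gradient, without a sort for pigment cells.

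The groups have limits as a model of melanocytes without mgat4b. The injected fish are mosaic, Cas9 acts only where the mitfa promoter is active, and the libraries hold RNA of whatever skin cells the gradient kept. The study describes tumors in control fish and melanocyte aggregates without tumors in mutant fish, so that genotype and tumor state cannot be told apart. The series text speaks of skin from 5 zebrafish in all, and the labels tie no library to a fish. They call the libraries of a group biological replicates. If libraries share fish or a cell pool, the p-values measure technical spread and are too small. In bulk RNA, fewer cells of a type and less RNA per cell cannot be told apart, and this holds for every gene group below.

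Mgat4b sits in the Golgi apparatus and starts a branch on the arms of N-glycans, the sugar trees attached to asparagine residues of secreted and membrane proteins. N-glycans are assembled in the endoplasmic reticulum, transferred to the new protein by the oligosaccharyltransferase complex, and used there as tags for folding before they are remodelled in the Golgi. Branched N-glycans are known to affect how long receptors and adhesion proteins stay at the cell surface and how they bind galectins. The question the comparison addresses is which genes differ between skin with the melanoma plasmids alone and skin in which mgat4b was targeted too.

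The counts deposited by the authors summed to 5225341 and 3538922 in the mgat4b mutant libraries and to 8223044 and 8446997 in the control libraries. The mutant libraries were thus the shallower ones. The signal recognition particle RNA gene rn7sl1 alone took between 26.2% and 30.7% of the counts in the mutant libraries and 37.3% to 37.4% in the control libraries. The unit of level is CPM, the count of a gene relative to its library scaled to 1000000 counts, where library sizes were corrected for composition with the TMM factors of edgeR. The mutant libraries also agreed less with each other. Of 4853 tested genes that averaged 20 CPM or more, 116 differed by more than 2-fold between the mutant libraries and 5 between the control libraries.

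The targeted gene, listed as MGAT4B (ENSDARG00000004115), had 17.3 and 13.3 CPM in the mgat4b mutant libraries and 13.4 and 13.8 CPM in the control libraries. The groups overlapped, so that its transcript does not check the labels. Defining markers of melanophores were detected in part. The premelanosome gene pmela had 81.6 and 67.5 CPM in mutant libraries and 55.5 and 58.7 CPM in control libraries. The melanin enzyme gene DCT was near the floor, with 7 and 0 counts in mutant libraries and 14 and 15 counts in control libraries. It was thus not detected in mutant library 2. Keratinocyte markers were detected in both groups. The adhesion gene epcam had 2130 and 2333 CPM in mutant libraries and 1829 and 1678 CPM in control libraries. CPM is not corrected for gene length, so that levels are compared between libraries and not between genes.

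Of 17651 genes tested by edgeR's quasi-likelihood test, 2214 were called, which is 12.5%. Calls needed both an adjusted p under 0.05, by the Benjamini-Hochberg method, and a change of 2-fold or more in either direction, the minimum fold change. The share of tested genes called higher in the mutant was 5.86%, or 1035 genes, and the share called lower was 6.68%, or 1179 genes. The counts of each list below are to be read beside these shares. Changes of at least 4-fold were less even, with 275 genes higher and 599 lower, and among the lower genes 305 had 3 counts or fewer in both mutant libraries. The genes called higher had a median level of 26.0 CPM in the mutant and 8.99 CPM in the control, and those called lower 4.16 CPM in the mutant and 15.95 CPM in the control. Without the correction for composition the median log2 fold change of all genes moved to 0.19, against -0.02 with it, and 64.0% of 2482 calls were higher, against 46.7% with it. Each fit that left out a library had a group of a single library, with its spread taken from the other group alone. Calls were then more numerous without a mutant library and fewer without a control library. Such counts, here and in each list below, thus reflect that spread as well as the genes. The median log2 fold change of all genes was between -0.1 and 0.0 in these fits.

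**Figure D1:**
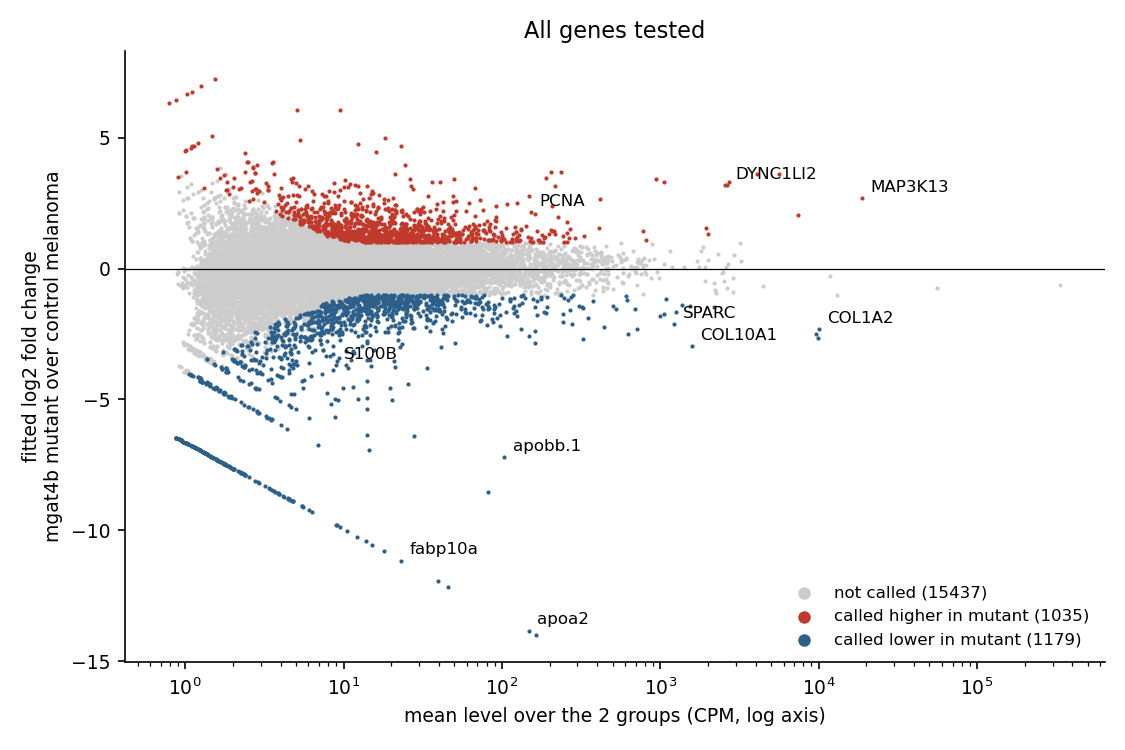
Each point is 1 of the 17651 genes tested, with the mean level of the groups in CPM on a log x axis and the fitted log2 fold change of mgat4b mutant over control melanoma on the y axis. Red points are the 1035 genes called higher in the mutant and blue points the 1179 called lower. The band of blue points far below 0 holds genes with hardly any counts in the mutant libraries, whose fitted fold changes are not bounds.

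Genes of DNA replication rose in number in the mgat4b mutant libraries. Of 65 tested, 37 rose and 0 fell, 0 were lower at an unadjusted p under 0.05, and DESeq2 also called 0 lower. Their median log2 fold change was 1.70, against -0.02 for all genes, and leaving out single libraries gave 26 to 48 rises. PCNA (ENSDARG00000054155, chromosome 10, 40821804 to 40826657 in GRCz11), the sliding clamp that holds polymerases on DNA, had 238 and 264 CPM in mutant libraries and 60.2 and 52.4 CPM in control libraries. Its log2 fold change was 2.15 (SE 0.12, adjusted p = 1.33e-05). SE is an approximate standard error, the size of the log2 fold change divided by the square root of the test's F value.

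The replicative helicase, a ring of minichromosome maintenance (MCM) proteins that opens the double helix, moved with the clamp. MCM5 had 76.2 and 68.8 CPM in mutant libraries and 11.2 and 13.4 CPM in control libraries, a log2 fold change of 2.56 (SE 0.18, adjusted p = 3.98e-05). MCM2 had 71.6 and 95.6 CPM in mutant libraries and 14.1 and 14.3 CPM in control libraries. For both helicase genes the mutant libraries lay more than 4-fold above either control library. The copy of MCM6 with identifier ENSDARG00000057683 rose by 2.47 on the log2 scale, while the other copy (ENSDARG00000033231) did not pass the test at -0.24. ORC6, a subunit of the complex that marks replication origins, was the member with the largest log2 fold change, 3.41 (SE 0.61, adjusted p = 0.00543), from 48 and 32 counts in mutant libraries and 7 and 5 counts in control libraries. TK1, which salvages thymidine for DNA synthesis, had 18.7 and 16.1 CPM in mutant libraries and 2.37 and 3.34 CPM in control libraries.

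Genes of mitosis rose in part. Of 69 tested, 24 rose and 0 fell, with 0 lower at an unadjusted p under 0.05 and 0 called lower by DESeq2, and the median log2 fold change was 1.18. The count changed with the library left out, as 12 rose without control library 1 and 14 without control library 2, whereas 35 rose without mutant library 1 and 39 without mutant library 2. CDC20, the activator of the ubiquitin ligase that ends metaphase, had 16.5 and 12 CPM in mutant libraries and 2.50 and 1.16 CPM in control libraries (log2 fold change 2.96, SE 0.49, adjusted p = 0.00358). The proliferation marker mki67 had 48.5 and 45.9 CPM in mutant libraries and 13.7 and 17.5 CPM in control libraries. Kinetochore gene kntc1 and condensin gene NCAPD2 rose too, with log2 fold changes of 2.28 (SE 0.22) and 1.85 (SE 0.28). Mitotic kinases differed in this. CDK1, which starts mitosis, rose by 1.89 on the log2 scale (SE 0.32), whereas plk1 at 0.76 (SE 0.45) and aurka at 0.33 (SE 0.32) did not pass the test.

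Among checkpoint and DNA damage genes 12 of 56 rose and 0 fell, with 0 lower at an unadjusted p under 0.05 and 0 called lower by DESeq2. The median was 0.87. The number that rose was 7 with either control library left out, 21 without mutant library 1 and 20 without mutant library 2, and leaving out the mutant libraries in turn gave 4 and 2 lower genes. Repair genes were among those that rose. MSH6, which takes part in the recognition of mismatches, had 30.5 and 34.9 CPM in mutant libraries and 5.91 and 9.26 CPM in control libraries. FANCD2, which is loaded onto DNA at crosslinks, had a log2 fold change of 2.51 (SE 0.28, adjusted p = 0.000431).

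Histone genes moved in both directions. Of 30 tested, 9 rose and 2 fell, with a median of 0.72. The replacement histone h2ax, which is phosphorylated around DNA breaks, had 118 and 133 CPM in mutant libraries and 36.9 and 34.5 CPM in control libraries (log2 fold change 1.81, SE 0.13, adjusted p = 5.61e-05). Among those that fell, the linker histone gene histh1l1, whose product binds between nucleosomes, had 7.90 and 11.2 CPM in mutant libraries and 47.1 and 43.7 CPM in control libraries. Copies of histone genes are nearly identical and the counting of shared reads is not stated, so that single histone genes are uncertain.

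**Figure D2:**
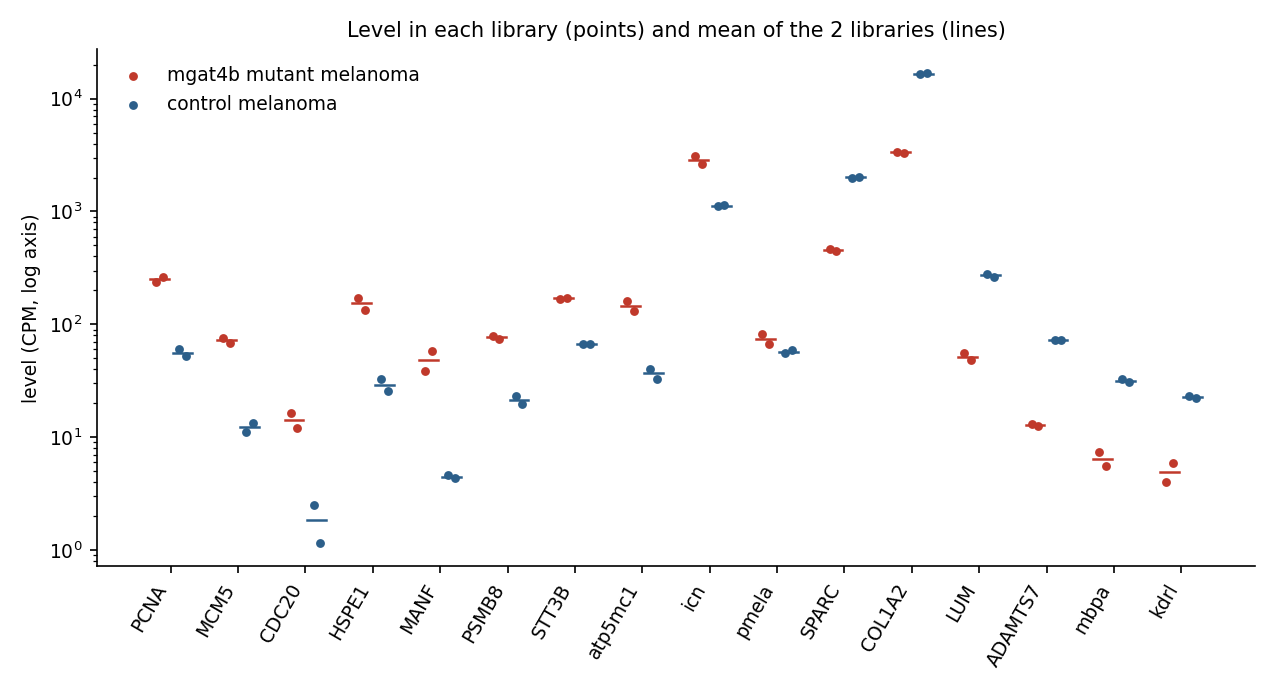
Level of 16 genes in each library, in CPM on a log axis, with mgat4b mutant melanoma in red to the left of control melanoma in blue and a line at the mean of the 2 libraries. PCNA, MCM5, CDC20, HSPE1, MANF, PSMB8, STT3B, atp5mc1 and icn lie higher in the mutant, SPARC, COL1A2, LUM, ADAMTS7, mbpa and kdrl lie lower, and pmela differs by a log2 fold change of 0.39 that did not pass the test.

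The unfolded protein response, by which cells enlarge the folding capacity of the endoplasmic reticulum, changed in part. Of 38 tested genes 15 rose and 1 fell, with a median of 0.71, and leaving out single libraries gave 11 to 16 rises. The secreted folding factor MANF had 38.8 and 58.1 CPM in mutant libraries and 4.6 and 4.37 CPM in control libraries, a log2 fold change of 3.42 (SE 0.27, adjusted p = 8.56e-05). CRELD2, a disulfide isomerase that is induced with MANF, had 15.6 and 22.7 CPM in mutant libraries and 2.50 and 1.80 CPM in control libraries. HSP90B1, HYOU1 and PDIA4, which are folding helpers in the endoplasmic reticulum, had log2 fold changes of 1.64, 2.06 and 2.00, with adjusted p between 3.91e-05 and 0.000203.

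One branch of the response runs through the translation factor kinase PERK and the factor ATF4, and its genes named here were chosen after their values were seen. The genes atf4a, atf4b, DDIT3 and TRIB3 had log2 fold changes between -0.48 and -0.07 and none was called. Of these, atf4b at -0.44 (edgeR adjusted p = 0.00979) and DDIT3 at -0.48 (adjusted p = 0.016) were lower but under the minimum fold change. ASNS, a target of ATF4 that makes asparagine, rose by 1.02 on the log2 scale. CHAC1, a target of that branch and the gene of the list with the most reads, had 414 and 408 CPM in mutant libraries and 459 and 479 CPM in control libraries (log2 fold change -0.19, SE 0.09, adjusted p = 0.161). The stress factor ATF3 fell, with 37.3 and 35.9 CPM in mutant libraries and 84.6 and 86.1 CPM in control libraries. XBP1, which drives the chaperone branch once its transcript is spliced, had a log2 fold change of 0.11 (SE 0.10). Gene counts do not show that splicing.

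N-glycan enzymes moved in both directions. Of 101 tested, 12 rose (11.9%) and 2 fell (1.98%), against 5.86% higher and 6.68% lower of all genes, with a median of 0.12. The number that rose was between 8 and 17 with each library left out, and the number that fell was 15 without mutant library 1, 8 without mutant library 2 and 0 with either control library left out. STT3B, a catalytic subunit of the oligosaccharyltransferase, had 169 and 170 CPM in mutant libraries and 67.6 and 66.8 CPM in control libraries, a log2 fold change of 1.33 (SE 0.11, adjusted p = 9.1e-05). The other subunits DDOST, RPN1 and OSTC rose by log2 fold changes between 1.12 and 1.31. The glucosidases MOGS and GANAB (ENSDARG00000076811) trim the new glycan and UGGT1 restores a glucose on misfolded proteins. These genes rose by log2 fold changes between 1.15 and 1.28. MOGS had an edgeR adjusted p of 0.0348, and its log2 fold change was 0.84 without mutant library 2. The other gene listed as GANAB (ENSDARG00000076888) was not called, at 0.34 (SE 0.20, edgeR adjusted p = 0.268).

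Enzymes of Golgi branching were not called. MGAT4A, the closest relative of mgat4b, had a log2 fold change of -0.02 (SE 0.21, adjusted p = 0.97), and mgat5, which adds the neighbouring branch, had -0.06 (SE 0.18, adjusted p = 0.858). FUT8 (ENSDARG00000015449), which puts fucose on the core of the glycan, fell to 5.88 and 6.88 CPM in mutant libraries, against 19.6 and 17.8 CPM in control libraries. Galectins, which bind branched N-glycans, had 1 of 13 called higher (7.69%) and 0 lower, against 5.86% higher and 6.68% lower of all genes. Of the 13, 3 were lower at an unadjusted p under 0.05 and 0 were called lower by DESeq2. The gene called higher was lgals4, with 91.5 and 80.5 CPM in mutant libraries and 33.9 and 38.3 CPM in control libraries.

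Proteasome subunits rose nearly as a block. Of 56 tested, 34 rose and 0 fell, with 0 lower at an unadjusted p under 0.05 and 0 called lower by DESeq2, and the median log2 fold change was 1.12. The number that rose was between 24 and 40 with each library left out, and the changes were even in size, none reaching 4-fold. PSMB3 of the catalytic core had 101 and 101 CPM in mutant libraries and 28.0 and 33.8 CPM in control libraries. PSMB8, an immunoproteasome subunit that shapes peptides for antigen presentation, had 79.3 and 74.2 CPM in mutant libraries and 23.1 and 19.6 CPM in control libraries (log2 fold change 1.85, SE 0.16, adjusted p = 0.000123). PSMB9 and psmb12 are immunoproteasome genes too and rose by 1.46 and 1.72 on the log2 scale. The class I gene mhc1uba rose beside them, with 377 and 343 CPM in mutant libraries and 92.9 and 91.5 CPM in control libraries, whereas mhc1zca, mhc1zda and mhc1zea of another class I lineage fell.

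Chaperones and heat shock genes rose in part, with 19 of 93 higher and 1 lower and a median of 0.38. The number that rose was 14 without control library 1, 12 without control library 2, 20 without mutant library 1 and 24 without mutant library 2. The mitochondrial pair HSPD1 and HSPE1, which form the folding chamber of the matrix, was among them. HSPE1 had 172 and 135 CPM in mutant libraries and 32.5 and 25.9 CPM in control libraries, a log2 fold change of 2.40 (SE 0.17, adjusted p = 4.56e-05), and HSPD1 had 120 and 95.3 CPM in mutant libraries and 26.7 and 26.6 CPM in control libraries. Subunits TCP1, CCT7, CCT5 and CCT3 of the cytosolic folding ring TRiC rose by log2 fold changes between 1.12 and 1.28. The largest rise was that of hsp90aa1.1, a chaperone of muscle in zebrafish, at 2.78 on the log2 scale. The heat-induced gene hsp70l was the member that fell, and 0 fell with either control library left out, against 11 without mutant library 1 and 9 without mutant library 2. It had 6.61 and 3.57 CPM in mutant libraries and 15.9 and 13.9 CPM in control libraries.

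Nuclear genes of oxidative phosphorylation, the respiratory chain and ATP synthase of mitochondria, were higher by median while those of the mitochondrial genome were not. Of all genes 5.86% were called higher and 6.68% lower, shares at which few calls are to be seen among 12 mitochondrial genes. Of 88 nuclear genes 22 rose and 1 fell, with a median of 0.75, and between 18 and 28 rose with each library left out. Of 12 mitochondrial genes 0 were called in either direction, with 2 up and 2 down by an unadjusted p under 0.05, 0 called by DESeq2 and a median of -0.07. The ATP synthase subunit atp5mc1 had 160 and 132 CPM in mutant libraries and 40.5 and 33.1 CPM in control libraries (log2 fold change 1.99, SE 0.15, adjusted p = 7.58e-05). The mitochondrial oxidase gene MT-CO1 had 1997 and 2659 CPM in mutant libraries and 2693 and 2463 CPM in control libraries. COX4I2, an oxidase subunit of hypoxic cells, was the nuclear gene that fell, with 5.33 and 4.84 CPM in mutant libraries and 15.9 and 13.4 CPM in control libraries. The scale matters for this list, since 34 rose without the correction for composition.

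Genes of ribosome building and of the ribosome itself were counted separately, beside 5.86% called higher and 6.68% called lower of all genes. Of 50 ribosome biogenesis genes 8 rose and 1 fell with a median of 0.82, and the number that rose was 4 with either control library left out, 14 without mutant library 1 and 20 without mutant library 2. With no minimum fold change 16 of the 50 rose. NHP2, part of the particle that modifies ribosomal RNA, had 37.1 and 40.3 CPM in mutant libraries and 7.62 and 8.49 CPM in control libraries. Cytosolic ribosomal proteins had 2 of 87 called higher and 0 lower, with 49 up and 0 down by an unadjusted p under 0.05, and a median of 0.29, and 37 rose with no minimum fold change. Their gene with the most reads, rps20, had 1273 and 1071 CPM in mutant libraries and 629 and 581 CPM in control libraries, a log2 fold change of 0.95 (SE 0.10, adjusted p = 0.000385) just under the minimum fold change.

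**Figure D3:**
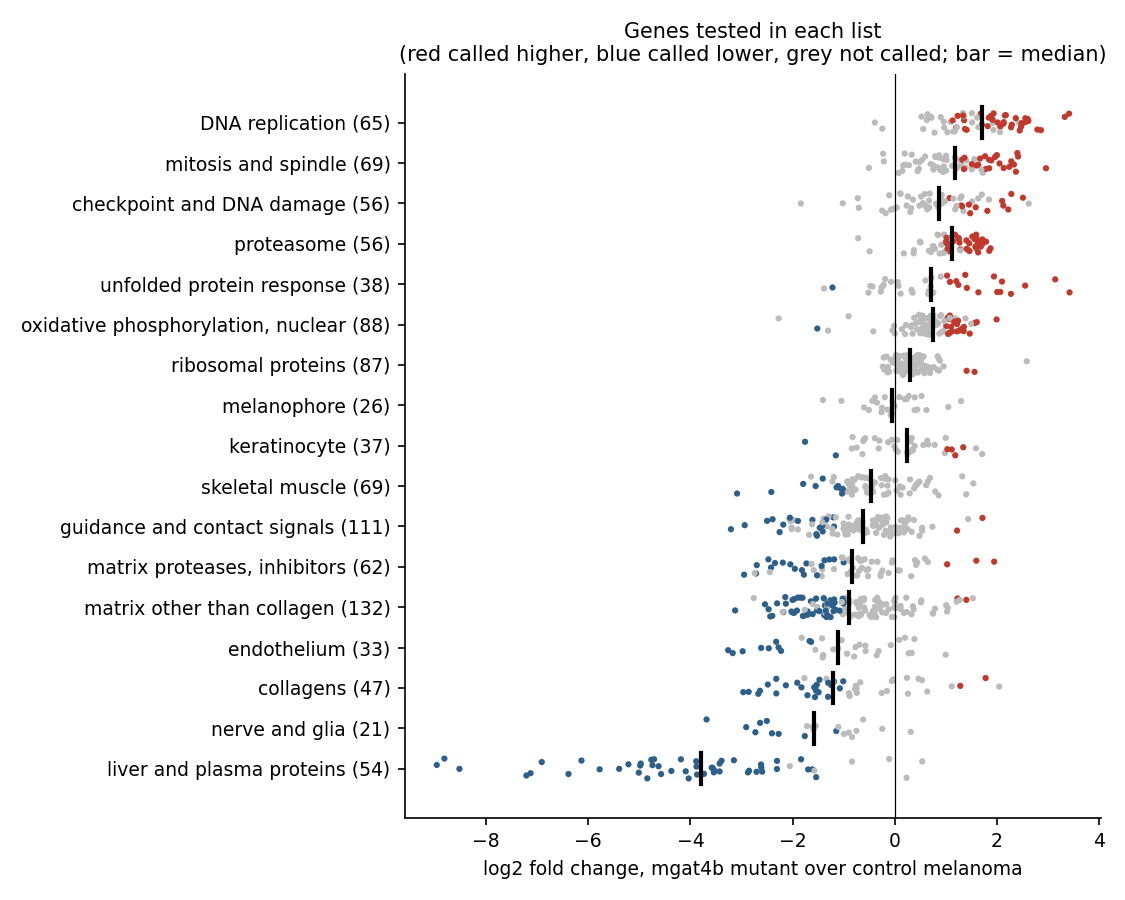
Each point is a tested gene, placed by its log2 fold change of mgat4b mutant over control melanoma, in 17 lists with the number of tested genes in parentheses. Genes with 3 counts or fewer in every library of a group stand at the bound computed against 3 counts. Red genes were called higher, blue genes lower and grey genes neither, and the bar is the median of the list, which runs from 1.70 for DNA replication to -3.80 for liver and plasma proteins.

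Collagens, the fibrous proteins of dermis, scale and basement membrane, were lower in the mutant libraries by level and by number. Their summed level was 12750 and 12410 CPM in mutant libraries and 61270 and 62660 CPM in control libraries. Of 47 tested, 24 fell and 2 rose, with a median log2 fold change of -1.21, and between 21 and 28 fell with each library left out. COL1A2 (ENSDARG00000020007, chromosome 19, 40983221 to 41002980 in GRCz11), a chain of the main dermal collagen, had 3380 and 3295 CPM in mutant libraries and 16382 and 16950 CPM in control libraries. Its log2 fold change was -2.32 (SE 0.07, adjusted p = 2.53e-07). The other chains COL1A1 and col1a1a had log2 fold changes of -2.64 and -2.48, each with a SE of 0.07.

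Scale and bone collagens fell with the dermal ones. COL10A1 on chromosome 20 (ENSDARG00000101535, 484256 to 487783), a collagen of bone-forming cells in fish, had 366 and 357 CPM in mutant libraries and 2764 and 2881 CPM in control libraries (log2 fold change -2.97, SE 0.08, adjusted p = 2.53e-07). The second gene listed as COL10A1 (ENSDARG00000054753) had 457 and 424 CPM in mutant libraries and 1539 and 1589 CPM in control libraries. Of 26 scale and bone genes 7 fell and 0 rose, with 1 higher at an unadjusted p under 0.05 and 0 called higher by DESeq2. The bone transcription factor SP7 was among those that fell, with 6.98 and 4.59 CPM in mutant libraries and 17.6 and 22.4 CPM in control libraries. Collagens that anchor the epidermis did not follow. The hemidesmosome gene col17a1b had 206 and 213 CPM in mutant libraries and 138 and 132 CPM in control libraries, under the minimum fold change, and the gene listed as col7a1l with identifier ENSDARG00000069692 rose by 1.78 on the log2 scale.

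Matrix proteins other than collagens fell in the same direction. Of 132 tested, 48 fell and 2 rose, with a median of -0.90, and between 36 and 64 fell with each library left out. SPARC, which binds collagen during matrix assembly, had 470 and 443 CPM in mutant libraries and 1974 and 2028 CPM in control libraries (log2 fold change -2.13, SE 0.08, adjusted p = 1.89e-06). LUM, a small proteoglycan that spaces collagen fibrils, had 55.3 and 47.9 CPM in mutant libraries and 281 and 264 CPM in control libraries. DCN of the same family had 66.1 and 55.0 CPM in mutant libraries and 192 and 179 CPM in control libraries. Both members that rose, fras1 and FREM2 (ENSDARG00000102626), encode parts of the complex that joins epidermis to dermis. This FREM2 gene had 70.3 and 71.4 CPM in mutant libraries and 24.2 and 29.5 CPM in control libraries. The other gene listed as FREM2 (ENSDARG00000076856) was not called, at a log2 fold change of -0.88 (SE 0.59).

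Enzymes that process the matrix were lower too, with 18 of 62 proteases and inhibitors down, 3 up and a median of -0.84. Without control library 1 the number that fell was 10 and without control library 2 it was 9, against 30 without mutant library 1 and 29 without mutant library 2. ADAMTS7, a secreted protease of cartilage and vessel matrix, had 13.2 and 12.7 CPM in mutant libraries and 72.4 and 72.2 CPM in control libraries (log2 fold change -2.47, SE 0.17, adjusted p = 3.63e-05). The procollagen peptidase adamts2a had 22 and 26 CPM in mutant libraries and 82.1 and 76.4 CPM in control libraries. The protease inhibitors RECK and TIMP2 (ENSDARG00000061226) fell as well. MMP2, the member with the most reads, had 194 and 204 CPM in mutant libraries and 293 and 278 CPM in control libraries, a log2 fold change of -0.52 (SE 0.10, adjusted p = 0.00586) under the minimum fold change. The metalloprotease mmp30 rose, with 130 and 119 CPM in mutant libraries and 41.1 and 41.3 CPM in control libraries.

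Fibroblast markers moved with these lists. Of 31 tested fibroblast and dermis genes, which include the collagen I chains, 15 fell and 1 rose, with a median of -1.47. The receptor PDGFRA, a defining marker of fibroblasts that is no matrix gene, had 38 and 41.3 CPM in mutant libraries and 116 and 105 CPM in control libraries (log2 fold change -1.48, SE 0.13, adjusted p = 0.000164). The gene that rose was thy1, a surface protein of fibroblasts and other cells, with 302 and 303 CPM in mutant libraries and 109 and 115 CPM in control libraries. The part of the fibroblast markers in the fall of matrix genes was not tested.

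Adhesion receptors were mixed. Of 31 integrin genes 4 rose (12.9%) and 6 fell (19.4%), against 5.86% higher and 6.68% lower of all genes, with a median of 0.19. The collagen receptor subunit ITGA11 (ENSDARG00000007950) fell to 6.06 and 3.82 CPM in mutant libraries, against 39.2 and 41.8 CPM in control libraries, while ITGA3, a laminin receptor subunit, rose to 25.3 and 30.3 CPM in mutant libraries, against 13.0 and 13.8 CPM in control libraries. Of 4 genes listed as ITGB1, a pair moved in opposite directions and the others were not called. The one on chromosome 24 (ENSDARG00000071863) had 28.5 and 29.8 CPM in mutant libraries and 82.8 and 80.0 CPM in control libraries, and the one on chromosome 2 (ENSDARG00000053232) had 62.5 and 44.1 CPM in mutant libraries and 22.1 and 19.4 CPM in control libraries. The integrin gene with the most reads, ITGB4 of the epidermal hemidesmosome, had a log2 fold change of 0.24 (SE 0.08, adjusted p = 0.0671).

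Among cadherins 5 of 67 rose (7.46%) and 9 fell (13.4%), against 5.86% higher and 6.68% lower of all genes. Without control library 1 there were 3 that rose, and without control library 2 there was 1. The number that fell was 4 without control library 1, 6 without control library 2, 22 without mutant library 1 and 23 without mutant library 2. The neural and mesenchymal cadherin CDH2 fell to 4.22 and 9.43 CPM in mutant libraries, against 23.3 and 20.3 CPM in control libraries, and CDH11 of mesenchyme fell to 47.8 and 37.2 CPM in mutant libraries, against 90.7 and 93.9 CPM in control libraries. Those that rose include cdh29, cdh30 and cdh31 on chromosome 7, with log2 fold changes of 1.55, 1.46 and 1.14. Genes of axon guidance and contact signalling had 17 of 111 lower (15.3%) and 2 higher (1.8%), against 6.68% lower and 5.86% higher of all genes. Their median was -0.63. The number that fell was 5 without control library 1 and 6 without control library 2, against 42 without mutant library 1 and 36 without mutant library 2. The semaphorin SEMA3B fell by 1.54 on the log2 scale, and the receptor PLXNA1 (ENSDARG00000105452) had 20.6 and 26.5 CPM in mutant libraries and 65.5 and 53.1 CPM in control libraries. The semaphorin receptor PLXNB1 (ENSDARG00000017211) rose, with 72.4 and 81.8 CPM in mutant libraries and 25.9 and 21.0 CPM in control libraries. The other genes listed as PLXNA1 (ENSDARG00000114823) and PLXNB1 (ENSDARG00000075821) were not called, at log2 fold changes of -0.25 and 0.20.

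Genes of liver and plasma proteins had the lowest median of the lists plotted. Of 54 tested, 48 fell and 0 rose, with 1 higher at an unadjusted p under 0.05 and 0 called higher by DESeq2. The median log2 fold change was -5.94, or -3.80 with genes at 3 counts or fewer set to their bound, and between 36 and 51 fell with each library left out. With a filter of at least 10 counts in every library 3 fell, since that filter removes genes absent from the mutant libraries. The counts of the 48 genes summed to 413 and 298 in mutant libraries and to 14763 and 15324 in control libraries, and 22 of the 48 had 0 counts in both mutant libraries. Those 22 genes passed the filter on low counts through the control libraries alone.

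The iron carrier gene tfa (ENSDARG00000016771, chromosome 2, 16780643 to 16794710 in GRCz11) had 0 and 0 counts in mutant libraries and 2454 and 2593 counts in control libraries, at least 499-fold lower in the mutant against a floor of 3 counts per library. The lipoprotein gene apoa2 also had 0 counts in both mutant libraries, against 2224 and 2327 in control libraries, at least 450-fold lower. The liver marker fabp10a, a bile acid binding protein of hepatocytes, had 0 counts in both mutant libraries and 352 and 357 counts in control libraries, at least 70.1-fold lower. The fibrinogen gene fga had 0 counts in both mutant libraries and 213 and 212 in control libraries, at least 42.0-fold lower. The apolipoprotein gene apobb.1 had 13 and 0 counts in mutant libraries and 1575 and 1599 counts in control libraries, so that a trace was present in mutant library 1 only. All 3 liver markers checked, fabp10a, apoa2 and fga, were thus undetected in the mutant and present in both control libraries at 27.3 to 299 CPM. What part liver RNA in the control libraries has in these falls was not tested.

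Members of the list that were not called included RBP4 and apoeb. RBP4, the carrier of vitamin A, had 650 and 625 CPM in mutant libraries and 430 and 449 CPM in control libraries, a log2 fold change of 0.54 (SE 0.08, adjusted p = 0.00282) under the minimum fold change. The lipoprotein gene apoeb, which skin macrophages and other cells express, had 216 and 164 CPM in mutant libraries and 151 and 173 CPM in control libraries. Markers of other internal organs were lower in small numbers. Of 27 exocrine pancreas genes 8 were tested and 3 of these fell. Of 38 intestine genes 14 were tested and 5 of these fell, against 6.68% called lower of all genes. Members with 0 counts in both mutant libraries passed the filter on low counts through the control libraries alone. The shares of these lists thus partly reflect the filter. The intestinal gene afp4 (ENSDARG00000095863) had 0 counts in both mutant libraries and 73 and 99 counts in control libraries, at least 17-fold lower. With either control library left out 0 pancreas and 2 intestine genes fell, whereas 7 and 11 fell without mutant library 1 and 9 of each without mutant library 2.

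**Figure D4:**
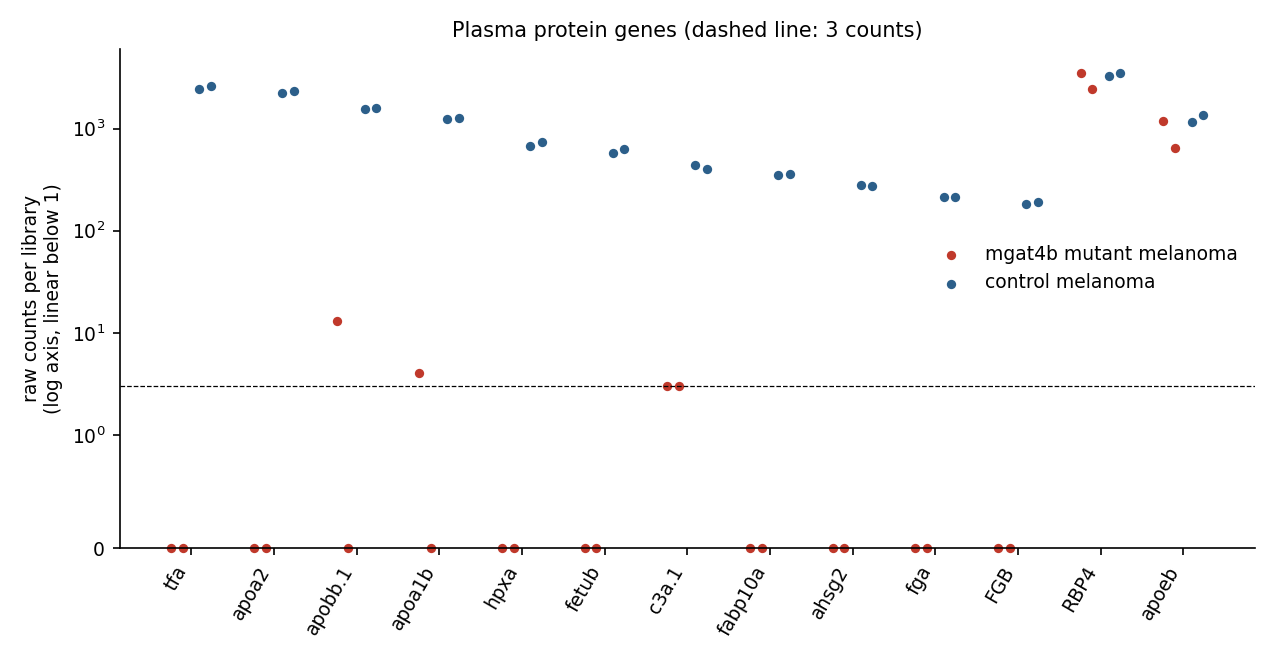
Raw counts of 13 genes of the liver and plasma protein list in each library, on a log axis that is linear below 1, with mgat4b mutant melanoma in red to the left of control melanoma in blue. For tfa, apoa2, hpxa, fetub, fabp10a, ahsg2, fga and FGB both mutant points lie at 0, and for RBP4 and apoeb all 4 libraries lie at 643 counts or more.

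Nerve and vessel genes fell in part. Of 21 nerve and glia genes 9 fell and 0 rose, with 0 higher at an unadjusted p under 0.05, 0 called higher by DESeq2 and a median of -1.59. The number that fell was 4 without control library 1, 5 without control library 2, 14 without mutant library 1 and 13 without mutant library 2. The myelin gene mbpa had 7.35 and 5.61 CPM in mutant libraries and 32.5 and 31.0 CPM in control libraries (log2 fold change -2.27, SE 0.26, adjusted p = 0.000502). S100B, a calcium-binding protein of glia that melanoma and other pigment cells also make, had 1.47 and 1.02 CPM in mutant libraries and 15.6 and 17.5 CPM in control libraries, a log2 fold change of -3.68 (SE 0.43, adjusted p = 0.000573).

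Of 33 endothelial genes 10 fell and 0 rose, with 1 higher at an unadjusted p under 0.05, 0 called higher by DESeq2 and a median of -1.11. With either control library left out, the number that fell shrank by a larger factor than it did over all genes. It grew without a mutant library. The median log2 fold change of the endothelial genes was between -1.46 and -1.02 in the fits that left out a library. The vessel receptor kdrl had 4.04 and 5.86 CPM in mutant libraries and 23.4 and 22.4 CPM in control libraries (log2 fold change -2.23, SE 0.31, adjusted p = 0.00165). Lymphatic and scavenger endothelial genes of the list, such as PROX1 at 0.27 (SE 0.26) and stab1 at 0.20 (SE 0.18), were not called. Skeletal muscle had 10 of 69 lower (14.5%) and 0 higher, against 6.68% lower and 5.86% higher of all genes. Of the 69, 1 was higher at an unadjusted p under 0.05 and 0 were called higher by DESeq2, and the median was -0.47. The muscle gene with the most reads, actc1b, had 397 and 406 CPM in mutant libraries and 793 and 850 CPM in control libraries. Leaving out mutant library 1 gave 21 lower muscle genes, and the other libraries gave 7 to 15.

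Melanophore genes gave no calls. Of 26 melanophore genes 0 were called in either direction, against 5.86% called higher and 6.68% called lower of all genes. At such shares few calls are to be seen among 26 genes, so the count alone shows little. The melanophore genes had 1 up and 1 down by an unadjusted p under 0.05, 0 called by DESeq2 and a median of -0.05. Their summed level was 416 and 437 CPM in mutant libraries and 426 and 408 CPM in control libraries. Leaving out mutant library 1 gave 3 lower calls, leaving out mutant library 2 gave 2, and a filter of 10 counts in every library gave 1. Tyrosinase, listed as TYR and the first enzyme of melanin synthesis, had 17.1 and 17.3 CPM in mutant libraries and 18.7 and 17 CPM in control libraries, a log2 fold change of -0.05 (SE 0.24, adjusted p = 0.912).

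Keratinocyte genes moved in both directions. Of 37 tested 4 rose (10.8%) and 2 fell (5.41%), against 5.86% higher and 6.68% lower of all genes. Their median was 0.24, and their summed level was 20850 and 19890 CPM in mutant libraries and 15140 and 14910 CPM in control libraries. Without control library 1 the number that fell was 1, and without mutant library 1 it was 5. The calcium-binding gene icn had 3093 and 2609 CPM in mutant libraries and 1124 and 1131 CPM in control libraries (log2 fold change 1.34, SE 0.09, adjusted p = 4.49e-05). Basal keratin krt5 had 4378 and 4081 CPM in mutant libraries and 2144 and 2098 CPM in control libraries, a log2 fold change of 1.00 that rounds up to the minimum fold change and was not called. The tight junction gene cldne fell, to 71.1 and 81.3 CPM in mutant libraries, against 252 and 262 CPM in control libraries.

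Immune cell genes were counted by cell type, where 5.86% of all genes tested were called higher and 6.68% lower. Macrophage and neutrophil genes had 0 of 44 higher and 2 lower, with 3 up and 16 down by an unadjusted p under 0.05, 1 called higher and 3 called lower by DESeq2, with 0 lower when either control library was left out, 9 without mutant library 1 and 5 without mutant library 2. Among 30 lymphocyte genes 2 rose and 3 fell, while 10 rose without mutant library 1 and 9 without mutant library 2, and 1 fell with either control library left out. RAG1, which cuts antigen receptor genes in developing lymphocytes, had 36.0 and 42.6 CPM in mutant libraries and 3.29 and 3.09 CPM in control libraries (log2 fold change 3.61, SE 0.26, adjusted p = 5.16e-05). The T cell kinase lck had 50.5 and 30.6 CPM in mutant libraries and 9.33 and 10.9 CPM in control libraries. The antibody chain gene ighm fell, with 1.65 and 2.04 CPM in mutant libraries and 18.4 and 22.5 CPM in control libraries. Output genes of the MAPK pathway, which BRAF drives in both groups, had 0 of 30 higher and 1 lower, with 2 up and 7 down by an unadjusted p under 0.05 and 0 higher by DESeq2. Their gene with the most reads, DUSP1, had 663 and 686 CPM in mutant libraries and 731 and 697 CPM in control libraries.

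Among all genes, 13 that rose had a mean of at least 1000 CPM in the mutant, and 9 of these changed by at least 4-fold. Together the 13 genes took at least 7.95% of the counts in either mutant library and at most 1.37% in either control library. SSRP1 on chromosome 14 (ENSDARG00000037397), listed under the name of a histone chaperone subunit, had 6280 and 8880 CPM in mutant libraries and 618 and 601 CPM in control libraries, a log2 fold change of 3.64 (SE 0.15, adjusted p = 2.86e-06). It overlaps genes on the other strand, and since the strand setting of the counting is not given its level is uncertain. The second gene with that symbol (ENSDARG00000016994) moved the other way, with 15 and 7 counts in mutant libraries and 73 and 55 counts in control libraries. DYNC1LI2, a light intermediate chain of the motor dynein, had 4412 and 5135 CPM in mutant libraries and 515 and 525 CPM in control libraries (log2 fold change 3.20, SE 0.09, adjusted p = 2.53e-07). The gene si:ch73-337l15.2 had 8908 and 11759 CPM in mutant libraries and 784 and 903 CPM in control libraries. MAP3K13, listed under the name of a kinase of stress signalling, had 27357 and 37705 CPM in mutant libraries and 4460 and 5615 CPM in control libraries, the most reads of the 13. As the strand setting and the treatment of reads with several matches are not given, this level is uncertain as well. Mutant library 2 was the higher one in each of these 4 genes, and rn7sl1, whose share was lower in the mutant, had a log2 fold change of -0.61 (SE 0.09, adjusted p = 0.00187).

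Other large rises were at lower levels. The tectorial protein gene TECTA had 282 and 418 CPM in mutant libraries and 35.6 and 27.3 CPM in control libraries (log2 fold change 3.47, SE 0.21, adjusted p = 1.75e-05). The prostaglandin receptor gene PTGER1 had 29.4 and 59.6 CPM in mutant libraries and 1.58 and 1.80 CPM in control libraries, and the crosslinking enzyme gene tgm1l2, which overlaps gpsm2l, had 29.4 and 31.6 CPM in mutant libraries and 1.05 and 1.67 CPM in control libraries.

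The wild-type melanophore libraries give a scale for these levels, in which all 6 libraries were scaled together and no comparison was tested. DNA replication genes summed to 1870 and 1967 CPM in mutant libraries, 583 and 578 CPM in control libraries and 976 and 990 CPM in wild-type libraries, so that the wild type lay between. Proteasome genes summed to 2258 and 2185 CPM in mutant libraries, 974 and 1005 CPM in control libraries and 1956 and 2005 CPM in wild-type libraries. Here the wild type lay near the mutant. Collagens summed to 14880 and 14430 CPM in mutant libraries, 72220 and 73880 CPM in control libraries and 5892 and 5339 CPM in wild-type libraries. For all 24 collagens that fell, and for 46 of the 48 liver and plasma protein genes that fell, the wild-type level was nearer to the mutant than to the control. Among all genes called lower this held for 73.2%, or 863 genes. Melanophore genes summed to 486 and 508 CPM in mutant libraries, 502 and 481 CPM in control libraries and 278 and 279 CPM in wild-type libraries. The wild-type libraries had 4.44 and 4.61 CPM of pmela and 2.17 and 1.54 CPM of TYR. Keratinocyte genes summed to 26400 and 27070 CPM in wild-type libraries, 24340 and 23130 CPM in mutant libraries and 17850 and 17580 CPM in control libraries. The name of the wild-type libraries thus comes from their labels and does not measure their share of melanophores.

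**Figure D5:**
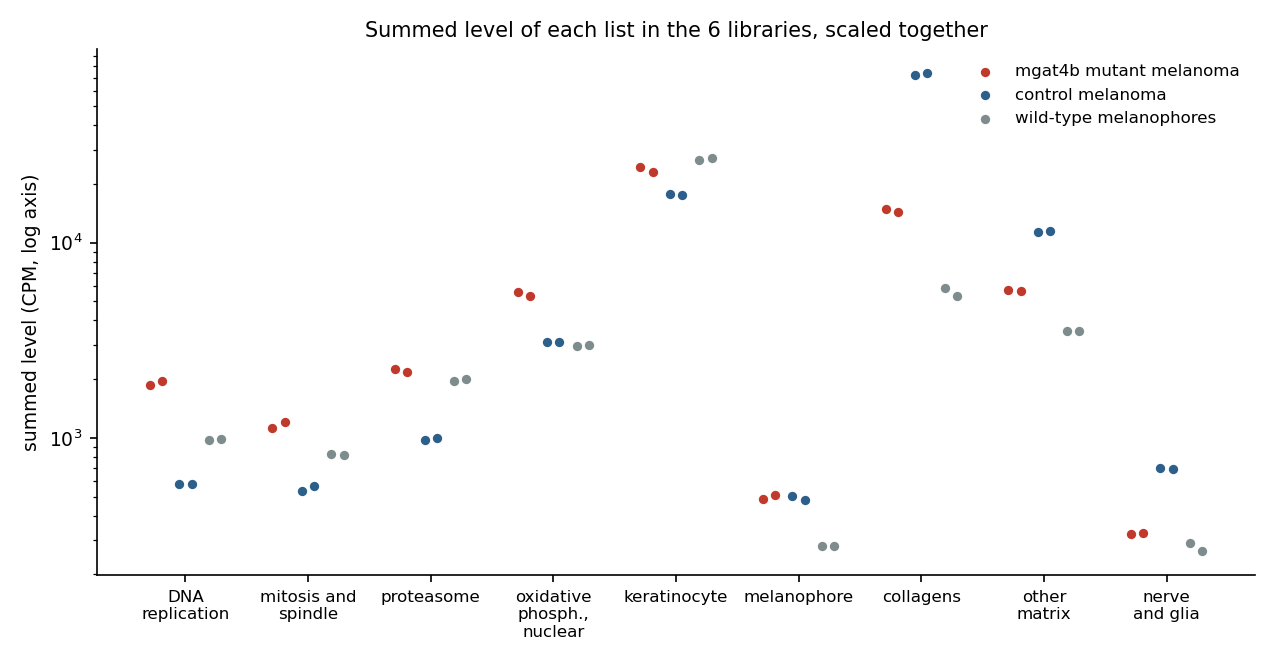
Summed level of the genes of each list in each library, in CPM on a log axis with all 6 libraries scaled together, for mgat4b mutant melanoma in red, control melanoma in blue and wild-type melanophores in grey. Collagens lie at 14430 to 14880 CPM in the mutant, 72220 to 73880 CPM in the control and 5339 to 5892 CPM in the wild type.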

How the data were processed

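RNA was sequenced from 2 mgat4b mutant melanoma, 2 control melanoma and 2 wild-type melanophore libraries, prepared with a stranded total RNA kit after removal of ribosomal RNA. The authors used Trimmomatic for trimming, STAR for alignment to GRCz11 and featureCounts, and deposited raw counts per gene. The annotation release, the strand setting and the treatment of reads with several matches are not given in the sources used here. Of 32520 gene identifiers 29201 were paired with a symbol, and 1719 symbols belong to several identifiers, which are then given beside the symbol.

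The 4 melanoma libraries were fitted alone with edgeR 4.0.16 (R 4.3.3), after its filterByExpr step (min.count 10, min.total.count 15) and with TMM, the trimmed mean of M values, and the quasi-likelihood F test. P-values were adjusted by the Benjamini-Hochberg method over all 17651 genes tested. Calls required an adjusted p below 0.05 together with a log2 change of 1 or more in size. A group with 3 counts or fewer in each library counted as not detected. Library totals of 3538922 to 8446997 counts limit the precision for low genes. The code was tested on simulated data. At an adjusted p under 0.05 it recovered 30 of 100 genes changed 2-fold and 63 of 100 changed 4-fold. Of 16733 unchanged genes it called 21 at that adjusted p, 16 of them with a change of 2-fold or more. The simulation gave both groups the same spread for each gene, whereas the real mutant libraries varied more than the control libraries. A gene that was not called may thus still differ, and some calls may be false.

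The comparison and the 53 gene lists were chosen with earlier results of these data known, so that list counts are descriptions. After values were seen, 48 matches that belong to other gene families were removed from the lists by name. Named genes are MGAT4B, the 15 largest rises and falls and the 10 lowest p among called genes that averaged 20 CPM or more in the higher group, and in each list the 4 called genes of lowest p per direction and the most abundant gene. Other genes were named after their values were seen. Alternatives were DESeq2 1.42.0, other scalings, filters and fold minimums, a fit of all 6 libraries, a replicate block and leaving out each library. A search of promoters for motifs was not run, and no sequence is shown. Some genes that the naming rule gives are not reported here.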

Additional observations from a re-analysis of the deposited data

How the results depend on the processing

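The 14 alternatives changed numbers more than directions. Of 124 called genes followed through the alternatives, some of them not named here, WNT1 alone turned round. Its log2 fold changes were -0.05 and 4.06 without mutant library 1 and 2. The main count of 2214 calls was 1281 without a filter on low counts (607 higher and 674 lower) and 874 with a 4-fold minimum (275 higher and 599 lower). It was between 1140 and 5155 with a library left out, with 594 to 2017 higher and 542 to 3204 lower. Library totals without TMM gave 1588 higher calls, and dropping the minimum fold change gave 1670. For mitosis genes 13 rose without a filter and 12 to 39 with a library left out. With a 4-fold minimum 9 mitosis, 21 DNA replication, 0 proteasome and 7 unfolded protein response genes rose, and 8 collagens and 12 other matrix genes fell. With at least 10 counts in every library 3 liver and plasma protein genes fell, as that filter removes genes without counts in the mutant. The medians of the 7 lists led with changed sign in none of the 12 alternatives that give one. With a replicate block there were 2147 calls. Same-numbered libraries did not deviate together (correlation -0.00621 across genes). With 2 libraries per group this value cannot decide whether the numbers pair the libraries. The shallower and more variable mutant libraries limit what can be seen in genes with low counts.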

Other observations

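Genes of the Wnt pathway moved in both directions. Of 59 tested 5 rose and 4 fell, against 5.86% higher and 6.68% lower of all genes. The number that rose was 3 without control library 1, 2 without control library 2, 7 without mutant library 1 and 5 without mutant library 2. The number that fell was 1 with either control library left out, 17 without mutant library 1 and 12 without mutant library 2. WNT10A, a ligand of skin and scale development, had 42.6 and 44.3 CPM in mutant libraries and 12 and 11.8 CPM in control libraries (edgeR log2 fold change 1.87, SE 0.19, adjusted p = 0.000324). WNT1 had 261 and 11 counts in mutant libraries and 25 and 19 counts in control libraries, so that its rise rests on mutant library 1 and its log2 fold change was -0.05 without it. Those that fell included the secreted inhibitor SFRP2, with 1.65 and 1.78 CPM in mutant libraries and 12.7 and 8.23 CPM in control libraries, and AXIN2, a feedback target of the pathway, with 16 and 11 CPM in mutant libraries and 26.2 and 29.6 CPM in control libraries.

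Of 64 lens crystallin genes 4 were tested and 3 of these rose, at low counts, against 5.86% higher of all genes. The genes that rose passed the filter on low counts through the mutant libraries alone, so that this share is largely set by the filter. With a filter of at least 10 counts in every library 0 rose. The gene crygm5 had 17 and 12 counts in mutant libraries and 0 in both control libraries, at least 7.92-fold higher in the mutant. Of 97 small structural RNA genes 4 rose (4.12%) and 13 fell (13.4%), against 5.86% higher and 6.68% lower of all genes. Of these RNAs 1 rose with either control library left out, 9 without mutant library 1 and 10 without mutant library 2. With either control library left out 9 fell, against 32 without mutant library 1 and 24 without mutant library 2. Across all genes called higher the wild-type level was nearer to the mutant for 351 and to the control for 684, and across those called lower it was nearer to the mutant for 863 and to the control for 316.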
